A study of Homo sapiens with 8 samples.

Results

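The 10 genes described here, DPPA3, DPPA5, DPPA2, NLRP7, KLF2, KLF4, KLF5, TFCP2L1, DND1 and TBX3, are known from naive pluripotency, the germ line or the egg, and were followed across the groups of a study that transduced human embryonic stem cells with lentiviruses. They were taken by gene symbol, with every probe that the array platform's annotation assigns to them: 16 probes of 47323 on the array. Of these, 14 probes covering 9 of the 10 genes were bright enough to be tested, among 21828 tested probes covering 12436 genes. The cells were of H1, an established embryonic stem cell line, and carried a virus meant to overexpress NANOG (OE-NANOG), OCT4 (OE-OCT4) or SOX2 (OE-SOX2), or a control virus (EF1a-control), with 2 arrays in each of the 4 groups. All groups, control included, were grown without feeder cells in mTeSR on Matrigel and received virus with polybrene. The labels give neither the time of harvest nor the promoter of the factor vectors nor the share of cells that took up virus. They also do not call the 2 replicates of a group separate cultures. A p-value here rests on the spread between replicate arrays, pooled over the 4 groups and moderated over all tested probes. That spread may be technical only. Each value is the brightness of 1 probe on 1 array, on a linear scale, and the number of arrays limits its precision.

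Human embryonic stem cells in mTeSR normally resemble the epiblast after implantation, a state called primed, whereas the naive state resembles the epiblast before implantation. In the mouse, naive cells are held by LIF and STAT3 signalling and by transcription factors that include Klf2, Klf4, Klf5, Tfcp2l1 and Tbx3. Several genes of that state, such as DPPA3, are also active in primordial germ cells and in the egg, while NANOG, OCT4 (encoded by POU5F1) and SOX2 form the central group of transcription factors in naive and primed cells alike.

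The promoters of 4 of the genes are shown because these genes had the largest changes that passed the test against control in either direction. Each is the 250 bases before the annotated start, 5′ to 3′ on the gene's strand, from RefSeq on GRCh38.p14. They lie at chr12:7711183-7711432 on the plus strand for DPPA3, and on the minus strand at chr6:73354277-73354526 for DPPA5, chr19:54947531-54947780 for NLRP7 and chr3:109316518-109316767 for DPPA2. Capitals mark TAAT or its reverse complement ATTA, the core letters that homeodomain proteins such as NANOG bind, and GGGCGG or CCGCCC, a GC box of the kind bound by Sp and Krüppel-like factors.
DPPA3: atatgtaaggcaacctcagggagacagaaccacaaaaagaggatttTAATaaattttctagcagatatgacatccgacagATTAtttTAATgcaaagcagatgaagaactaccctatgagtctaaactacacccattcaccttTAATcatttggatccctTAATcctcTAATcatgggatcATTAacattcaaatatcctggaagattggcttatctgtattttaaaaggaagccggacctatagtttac
DPPA5: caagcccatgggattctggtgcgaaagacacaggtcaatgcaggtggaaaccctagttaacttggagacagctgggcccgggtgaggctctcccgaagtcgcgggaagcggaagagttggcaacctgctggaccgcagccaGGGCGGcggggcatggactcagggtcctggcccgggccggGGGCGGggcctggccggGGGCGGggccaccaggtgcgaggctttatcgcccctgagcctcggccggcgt
NLRP7: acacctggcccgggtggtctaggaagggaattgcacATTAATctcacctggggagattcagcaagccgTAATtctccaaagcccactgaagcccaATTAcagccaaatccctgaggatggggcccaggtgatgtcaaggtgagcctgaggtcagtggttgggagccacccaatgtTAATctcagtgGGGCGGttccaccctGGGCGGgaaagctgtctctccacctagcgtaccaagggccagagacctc
DPPA2: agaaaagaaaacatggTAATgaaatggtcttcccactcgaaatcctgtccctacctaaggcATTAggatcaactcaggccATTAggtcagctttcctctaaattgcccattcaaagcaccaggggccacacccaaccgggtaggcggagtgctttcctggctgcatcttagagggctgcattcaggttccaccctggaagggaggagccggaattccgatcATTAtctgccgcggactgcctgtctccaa
The 4 promoters differed in composition. DPPA3 held 7 TAAT matches on the 2 strands together, overlapping matches counted, and 2.12% of 35116 promoters of this length held as many or more. NLRP7 held 5 and DPPA2 held 4, counts reached by 6.16% and 10.4% of promoters, and DPPA5 held 0, with 47.4% of promoters having at least 1. DPPA5 held 3 GC boxes and NLRP7 held 2, counts reached by 13.9% and 24.3% of promoters, whereas DPPA3 and DPPA2 held 0 and 42.6% of promoters had at least 1. The GC content was 35.6% for DPPA3, 68.8% for DPPA5, 56.8% for NLRP7 and 52.0% for DPPA2, against a median of 58.0% over all promoters. Among the other genes with a promoter in the table, KLF2 and KLF4 held 4 GC boxes each, TFCP2L1 held 5 and DND1 held 1. The octamer ATGCAAAT of POU factors and the SOX letters AACAAAG, searched on both strands, had 0 matches in the 10 promoters of the 9 genes found, against 1.63% and 4.5% of all promoters. These are letter matches and say nothing about binding in these cells.

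The arrays were checked for their cell type and for the transduced factors. All 12 embryonic stem cell markers on the array lay above the filter intensity of 123.7 on all 8 arrays, with summed intensities of 36441 to 36765 in NANOG, 32123 to 33090.2 in OCT4, 27096 to 32229 in SOX2 and 36346 to 38726 in control cells. Of the markers of other cells, 2 of 9 for fibroblasts, 2 of 8 for blood and endothelium, 0 of 8 for trophoblast and 1 of 6 for early neural cells exceeded it on all arrays. The probes for NANOG, POU5F1 and SOX2 did not read higher, by mean log2 intensity, in the cells labelled with the same factor than in control cells. SOX2 probe ILMN_2177156 was lower in SOX2 cells, at -1.15 (adjusted p = 0.00840), and POU5F1 probe ILMN_1705546 was at -0.95 in OCT4 cells (adjusted p = 0.0981). Where these probes lie relative to the transduced sequences was not analysed here, so they do not check the labels, and the groups are called by them. The SOX2 arrays stood apart from each other, with 572 probes of the 21828 differing by more than 1 log2 unit, against 1 in NANOG, 55 in OCT4 and 60 in control cells.

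NANOG-transduced cells had more signal for 5 of the 10 genes. Of the 14 tested probes, 8 were higher than in control cells at an adjusted p under 0.05 and 0 were lower, where 1.78% of all tested probes were higher and 0.536% lower. On 13 of the 14, both NANOG arrays lay above both control arrays, as they did for 23.7% of all tested probes. These 8 belong to DPPA3 (3 probes), NLRP7 (2 probes), DPPA5, KLF2 and DND1, out of 9 tested genes. TFCP2L1, DPPA2, KLF4 and TBX3 did not pass. With no filter on brightness, so that all 16 probes were tested, 8 were again called. As a probe that is bright in 1 group alone passes the filter through that group, these counts describe the genes and support nothing about them as a set. The summed fibroblast markers were lower in NANOG cells, at 1668 to 1671 against 1930.1 to 2377 in control cells. They were 1634 to 1719 in SOX2 cells and 1750 to 2309 in OCT4 cells. FAP, LUM and POSTN lay under the filter intensity on all arrays. COL1A1 read 410 and 450 in NANOG cells against 713 and 1063 in control cells, while COL1A2 read 450 and 434 against 416 and 503. The sums for blood and endothelium were 945 to 984 in NANOG cells against 1047 to 1136 in control cells. CDH5, PECAM1, PTPRC and SPI1 lay under the filter intensity. By limma, 0 of the 5 tested fibroblast markers and 0 of the 3 tested for blood and endothelium were called. Of the 12 stem cell markers 1 was lower and 0 were higher, where 0.675% and 2.32% of all genes were. This was PODXL, at -1.03 on the log2 scale (SE 0.14, adjusted p = 0.00926). Its call was lost without control replicate 2 or either NANOG array. The part of these markers in the results was not tested. In bulk RNA, a change in the share of cells that express a gene and a change in RNA per cell cannot be told apart.

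**Figure D1:**
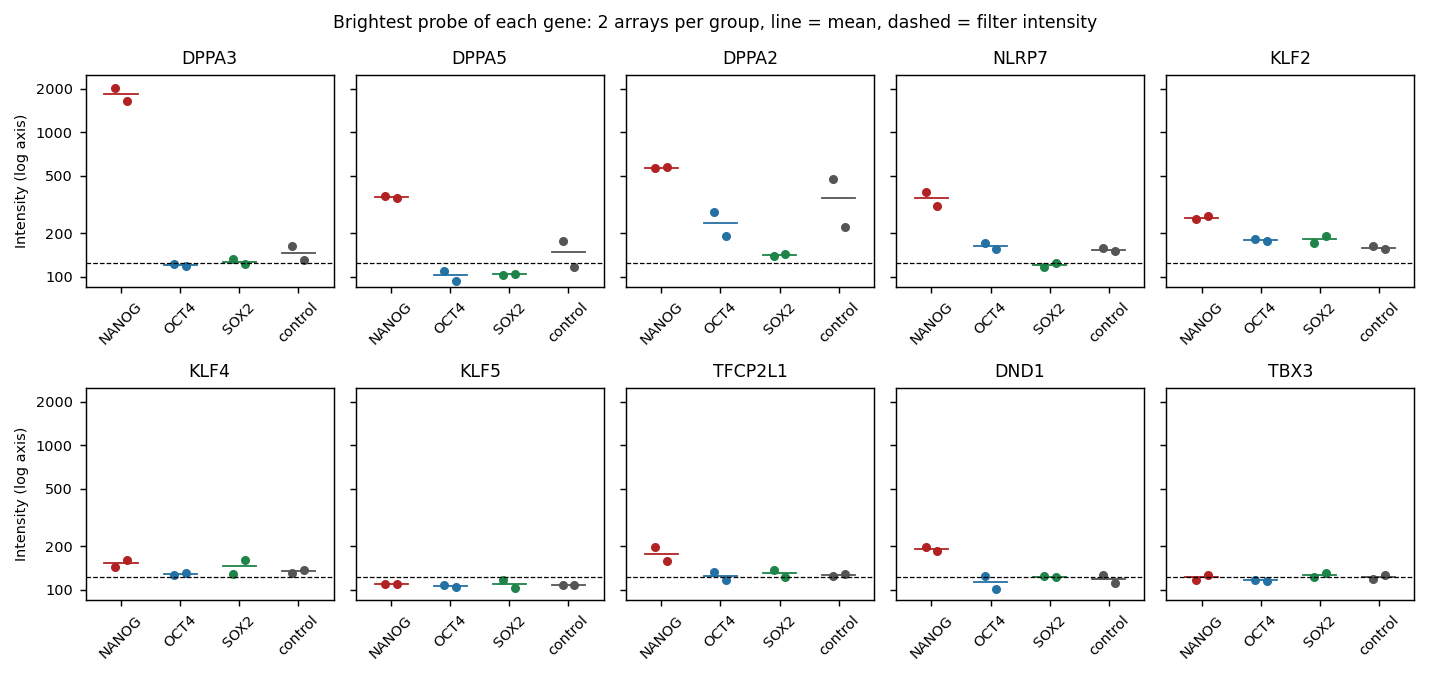
Intensity (linear units, log axis) of the brightest probe of each of the 10 genes, with 1 point per array, 2 arrays per group and a bar at the group mean; the dashed line is the filter intensity of 123.7. DPPA3 reads 2018 and 1642 on the NANOG arrays and at most 163 on the other 6, while KLF5 stays under the line on all 8.

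DPPA3, also called STELLA, is a maternal factor that in mouse protects the maternal genome of the zygote from demethylation and marks primordial germ cells. Its brightest probe, ILMN_3251278, read 2018 and 1642 in NANOG cells, 122 and 118 in OCT4 cells, 132 and 122 in SOX2 cells, and 163 and 130.2 in control cells. The 2 NANOG arrays stood far above the other 6, which lay near the filter intensity. The difference between NANOG and control was 4.11 on the log2 scale (SE 0.17, 95% interval 3.72 to 4.50), or 17.3-fold after background correction (adjusted p = 0.000112). It was the highest log2 change of the 21828 probes tested in this comparison (rank 1).

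The other probes of DPPA3 gave the same direction. ILMN_2117538 read 1147 and 916 in NANOG cells and 135 and 111 in control cells, with 112 to 116 on the OCT4 and SOX2 arrays. Its log2 change of 3.63 (SE 0.17, adjusted p = 0.000112), or 12.4-fold, ranked 3. ILMN_1781563 read 274 and 293 in NANOG cells against 119 and 113 in control cells, and exceeded the filter intensity on the NANOG arrays only. Both control arrays lie under that intensity, so only a bound is given, on the deposited intensities: at least 2.29-fold higher in NANOG cells (adjusted p = 0.000187). The 3 probes thus differed in the size of the log2 change, and 12 pseudogenes named after DPPA3 are listed in RefSeq. Which copies each probe can bind was not tested.

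NLRP7, a maternal-effect gene mutated in women with recurrent hydatidiform moles, was measured by 3 probes. ILMN_1652366 read 386 and 309 in NANOG cells, 171 and 155 in OCT4 cells, 116 and 125 in SOX2 cells, and 158 and 149.7 in control cells. The NANOG arrays were highest and the SOX2 arrays lowest, with the OCT4 and control arrays between them. The NANOG difference was 1.44 on the log2 scale (SE 0.15), or 2.72-fold (adjusted p = 0.00245). ILMN_1658632, at 242 and 231 in NANOG cells and 128 and 122 in control cells, differed by 1.23 (SE 0.10, adjusted p = 0.000975). The dimmest, ILMN_1798063, read 159.9 and 152 in NANOG cells against 134 and 104 in control cells, and its log2 change of 0.59 (SE 0.18, adjusted p = 0.158) did not pass. The calls of all 3 DPPA3 probes and of both brighter NLRP7 probes held with any 1 of the 8 arrays left out.

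**Figure D2:**
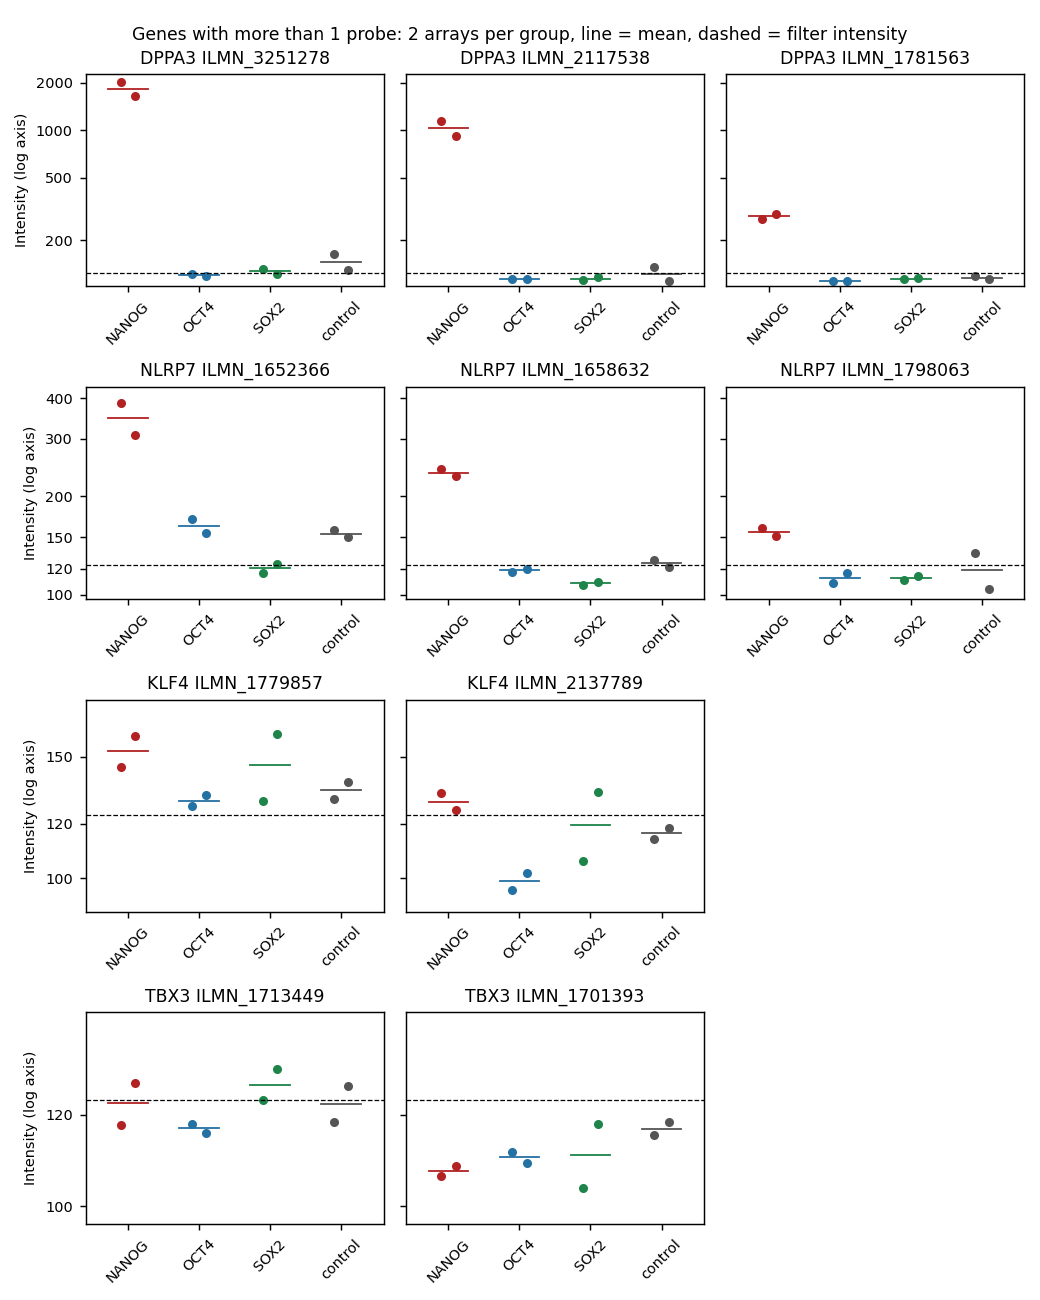
Intensity (linear units, log axis) of every probe of DPPA3, NLRP7, KLF4 and TBX3, the genes with more than 1 probe, with 1 point per array in each of the 4 groups and the filter intensity of 123.7 dashed. The NANOG arrays are highest for all 3 probes of DPPA3 and all 3 of NLRP7, while the probes of TBX3 stay near or under the line in every group.

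DPPA5, an RNA-binding protein gene of pluripotent and germ cells also called ESG1, had 1 probe. It read 359.7 and 352 in NANOG cells, 110.2 and 94.0 in OCT4 cells, 103 and 105 in SOX2 cells, and 178 and 118 in control cells. Only the NANOG arrays and control replicate 1 exceeded the filter intensity. The NANOG difference was 1.63 on the log2 scale (SE 0.25), or 3.10-fold (adjusted p = 0.0159). The call was lost without control replicate 2 (log2 1.21, adjusted p = 0.0561), without NANOG replicate 1 (1.62, 0.219) and without NANOG replicate 2 (1.65, 0.156). RefSeq lists 4 pseudogenes named after DPPA5.

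KLF2, a Krüppel-like zinc finger factor that helps to hold the naive state in mouse, read 249 and 262 in NANOG cells, 182 and 178 in OCT4 cells, 171 and 192 in SOX2 cells, and 163 and 155 in control cells. The NANOG arrays were highest, and every array of the other 2 factors also lay above both control arrays. The NANOG difference was 0.87 on the log2 scale (SE 0.12), or 1.83-fold (adjusted p = 0.00938). DND1, an RNA-binding protein that germ cells need to survive in mouse and zebrafish, read 198 and 185 in NANOG cells, and 126 and 111 in control cells. Its 4 OCT4 and SOX2 arrays read 102 to 125, in the range of the control arrays or below it. The NANOG difference for DND1 was 0.97 (SE 0.17), or 1.96-fold (adjusted p = 0.0256). Both calls were lost with 1 array fewer: without control replicate 2 the adjusted p was 0.104 for KLF2 (log2 0.82) and 0.232 for DND1 (0.83), without NANOG replicate 1 it was 0.118 (0.92) and 0.309 (0.91), and without NANOG replicate 2 it was 0.129 (0.83) and 0.187 (1.03).

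The remaining transcription factors of mouse naive cells did not pass against control. TFCP2L1, a target of LIF and STAT3 signalling in mouse, read 198 and 159 in NANOG cells and 125 and 129 in control cells. These groups did not overlap, and the log2 difference was 0.67 (SE 0.17, adjusted p = 0.0911). With 1 array left out, the difference was 0.46 to 0.88. It passed at an adjusted p of 0.0203 when only the 2 groups were fitted. This was the only pass among the 6 alternatives other than leaving out an array. KLF4, another Krüppel-like factor and a reprogramming factor, read 145 and 161 in NANOG cells against 131 and 138 in control cells on its brighter probe, a log2 difference of 0.26 (SE 0.16, 95% interval -0.11 to 0.63, adjusted p = 0.537). Its other probe differed by 0.23 (adjusted p = 0.622). TBX3, a T-box factor that aids self-renewal of mouse embryonic stem cells, read 118 and 128 in NANOG cells and 118 and 127 in control cells, and the difference was 0.00091 (95% interval -0.27 to 0.27, adjusted p = 0.999). KLF5, also of the Krüppel-like family, read 103 to 118 over the 8 arrays, under the filter intensity throughout, and the second TBX3 probe read 104 to 118, so neither was tested.

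DPPA2, a SAP-domain chromatin protein that works with DPPA4 in early embryos and germ cells, had the widest spread between replicates of the 14 probes in the control group. It read 562 and 574 in NANOG cells, 279 and 193 in OCT4 cells, 139 and 143 in SOX2 cells, and 476 and 219.9 in control cells. The NANOG arrays were highest and the SOX2 arrays lowest, while the 2 control arrays differed by 1.29 log2 units, with the higher OCT4 array between them. The NANOG difference of 0.92 (SE 0.37, adjusted p = 0.292) did not pass. Without control replicate 1 it was 1.56, and without control replicate 2 it was 0.28. It passed under 0 of the 7 alternatives other than leaving out an array.

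**Figure D3:**
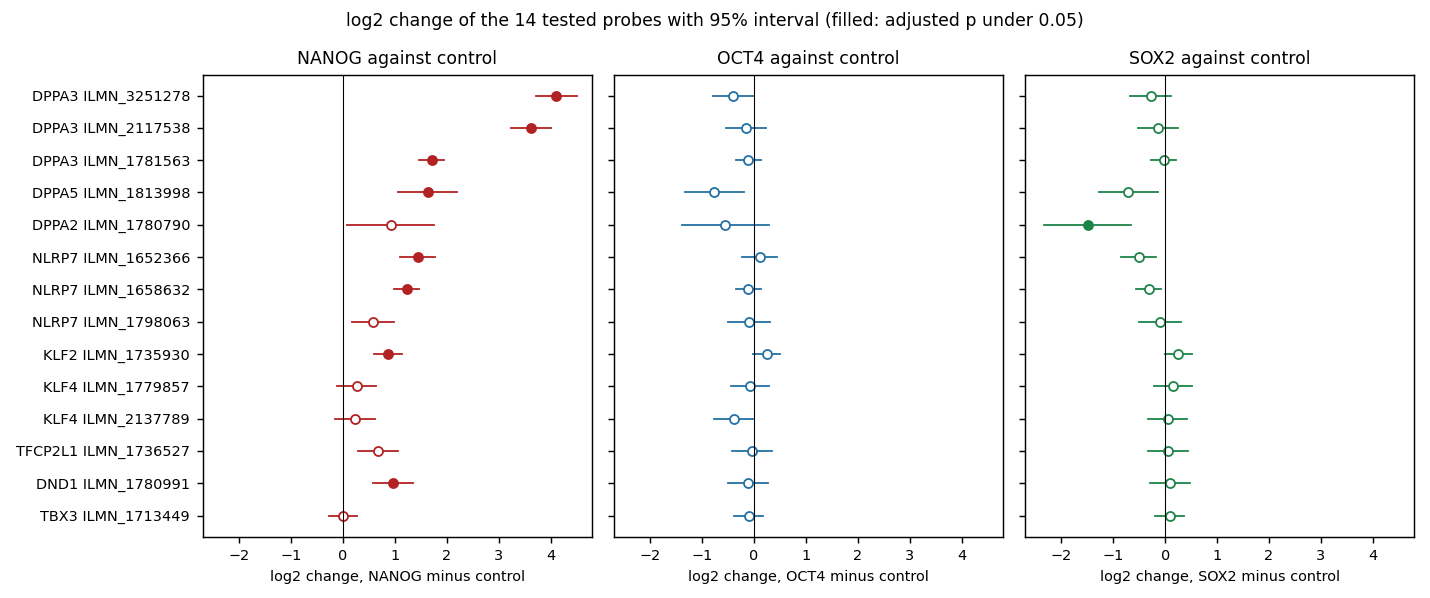
Difference from control on the log2 scale for the 14 tested probes in NANOG, OCT4 and SOX2 cells, with 95% intervals from the model; filled points passed at an adjusted p under 0.05. In NANOG cells 8 points are filled and all 8 lie right of 0, in OCT4 cells 0 are filled, and in SOX2 cells only DPPA2 is, at -1.49.

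OCT4-transduced cells showed no change in these genes that passed the test. By limma, 0 of the 14 probes were called against control, where 0.174% of all tested probes were. The unadjusted p was under 0.05 for 3 of the 14, and for 1418 of all 21828 tested probes. Those 3 were the brightest DPPA3 probe at -0.40 (SE 0.17, adjusted p = 0.765), DPPA5 at -0.76 (SE 0.25, adjusted p = 0.530) and the dimmer KLF4 probe at -0.38 (SE 0.17, adjusted p = 0.767). Both OCT4 arrays lay under the filter intensity for these probes. For the KLF4 probe both control arrays, at 114 and 118, lay under it too. KLF2 was at 0.24 (SE 0.12, adjusted p = 0.835) and NLRP7 probe ILMN_1652366 at 0.11 (SE 0.15, adjusted p = 1.00). A miss at this number of arrays does not show that the genes were equal in both groups.

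SOX2-transduced cells had less DPPA2 signal, and no other member passed. Of the 14 probes 1 was lower and 0 were higher than in control cells, with 3.67% and 4.34% of all tested probes called lower and higher, so the members' share is near the background. DPPA2 fell by 1.49 on the log2 scale (SE 0.37), or 2.81-fold (adjusted p = 0.0456). Without control replicate 1, whose reading of 476 was above that of control replicate 2 by more than 1 log2 unit, the difference was -0.85 (adjusted p = 0.169). Leaving out an array of another group kept it at -1.49 and ended the call too, at an adjusted p of 0.102 for either NANOG array and 0.0672 for either OCT4 array, and so did fitting only the 2 groups (adjusted p = 0.181). The summed stem cell markers were lower than in control cells on the SOX2 arrays and on the OCT4 arrays, as given above. By limma, 3 of the 12 were lower in SOX2 cells and 0 higher, where 4.41% and 5.64% of all genes were. They were TERF1, at -2.51 (SE 0.16, adjusted p = 0.000322), DNMT3B and SALL4. The calls of DNMT3B and SALL4 were lost when only the 2 groups were fitted. In OCT4 cells 0 of the 12 were called, where 0.201% of all genes were higher and 0.0402% lower. The part of these markers in the result was not tested.

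Among the other members in SOX2 cells, NLRP7 probe ILMN_1652366 was at -0.51 (SE 0.15, adjusted p = 0.0741) and DPPA5 at -0.71 (SE 0.25, adjusted p = 0.128). Without control replicate 2, DPPA5 was at -1.14, and without control replicate 1 it was at -0.29. It passed under 0 of the 6 alternatives other than leaving out an array. Both SOX2 arrays of DPPA5 lay under the filter intensity, which makes its difference dependent on the 2 control readings of 178 and 118. KLF2 was at 0.25 (SE 0.12, adjusted p = 0.236), and the brighter KLF4 probe, at 129 and 162 in SOX2 cells, at 0.15 (SE 0.16, adjusted p = 0.626).

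The factors were also set against each other, which tests whether NANOG cells differed from the other transduced cells and uses no control array in the difference. Against OCT4 cells, 9 of the 14 probes were called higher in NANOG cells, with 3.22% of all tested probes called higher and 1.91% lower. Against SOX2 cells, 11 were called higher, with 6.86% of all tested probes called higher and 6.61% lower. In neither comparison was a probe of the 14 called lower in NANOG cells. Between OCT4 and SOX2 cells 0 of the 14 were called by limma, where 4.75% of all tested probes were. There the unadjusted p was under 0.05 for 3 of the 14, and for 4337 of all 21828 tested probes. These comparisons share the 2 NANOG arrays with each other and with the comparison against control, so they are not separate evidence.

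DPPA3 probe ILMN_3251278 was higher in NANOG cells by 4.51 log2 units than in OCT4 cells (SE 0.17, adjusted p = 5.51e-05). Against SOX2 cells it was higher by 4.39 (SE 0.17, adjusted p = 4.93e-05). The fold was at least 14.7 against OCT4 cells by deposited intensity. Against SOX2 cells it was 21.0 after background correction, so the 2 folds are on different scales. DPPA5 was at least 2.88-fold higher than in either by deposited intensity (adjusted p = 0.00160 against OCT4 and 0.000873 against SOX2). NLRP7 probe ILMN_1652366 differed by 1.33 from OCT4 cells (SE 0.15, adjusted p = 0.00221) and by 1.96 from SOX2 cells (SE 0.15, adjusted p = 0.000184), with both SOX2 arrays at the bottom of its order. DPPA2 was 5.33-fold higher in NANOG than in SOX2 cells (log2 2.41, SE 0.37, adjusted p = 0.00429), and missed the threshold against OCT4 cells (log2 1.48, SE 0.37, adjusted p = 0.0600). The DPPA2 call was lost without NANOG replicate 1 (adjusted p = 0.0510) or NANOG replicate 2 (0.0507), with the log2 difference between 2.40 and 2.43.

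For DND1, KLF2 and TFCP2L1 both NANOG arrays were highest as well. DND1 was higher by 1.09 than in OCT4 cells (SE 0.17, adjusted p = 0.00898) and by 0.87 than in SOX2 cells (SE 0.17, adjusted p = 0.0116). KLF2 was higher by 0.63 (SE 0.12, adjusted p = 0.0196) and 0.62 (SE 0.12, adjusted p = 0.0108). TFCP2L1, which had missed against control, passed narrowly here, at 0.71 against OCT4 cells (SE 0.17, adjusted p = 0.0494) and 0.62 against SOX2 cells (SE 0.17, adjusted p = 0.0430). Leaving out NANOG replicate 1 took the adjusted p of TFCP2L1 to 0.379 and 0.299, that of KLF2 to 0.151 and 0.0783, and that of DND1 to 0.125 and 0.114. Leaving out NANOG replicate 2 gave 0.0840 and 0.0573 for TFCP2L1, 0.192 and 0.106 for KLF2, and 0.0832 and 0.0762 for DND1. Against OCT4 cells, KLF2 was also lost without OCT4 replicate 1 (0.0933) or 2 (0.153) and DND1 without OCT4 replicate 2 (0.0727). TFCP2L1 was lost against OCT4 cells without any 1 control (0.0812) or OCT4 array (0.105 and 0.326), and against SOX2 cells without any 1 control (0.0713) or OCT4 array (0.0617) or SOX2 replicate 2 (0.0917). The dimmest NLRP7 probe passed against SOX2 cells, where both arrays lay under the filter intensity, at least 1.26-fold higher by deposited intensity (adjusted p = 0.0359), and did not pass without NANOG replicate 1 (0.221), NANOG replicate 2 (0.155) or either OCT4 array (0.0621). KLF4 and TBX3 passed in none of the 6 comparisons.

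The replicates of the control group were far apart for some of these genes. The median absolute difference over the 14 probes was 0.14 on the log2 scale, against 0.13 over all tested probes. Control replicate 1 read higher than replicate 2 in 10 of the 14 probes, against 50.7% of all tested probes. Of the 14, 5 differed by more than 0.4 log2 units, against 7.12% of all tested probes. All 5 were higher in replicate 1, and they were the probes of DPPA2 and DPPA5, the 2 brighter probes of DPPA3 and the dimmest of NLRP7. In NANOG cells 1 of 14 differed by as much, against 0.848% of all tested probes. In SOX2 cells replicate 2 was higher in 11 of 14 and replicate 1 in 3, where replicate 1 was higher for 47.3% of all tested probes. There 2 of 14 differed by over 0.4, against 21.9% of all tested probes. Whether the control arrays differ in the state of the cells or in their handling was not tested.

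Other genes of the same states were counted from lists to see how widely the pattern held. Each gene was taken by its brightest probe. Of the 11 tested genes of naive pluripotency outside the 10, 2 rose and 0 fell in NANOG cells, where 2.32% and 0.675% of all 12436 genes did, and the median log2 change was 0.14 against -0.02 over all genes. Those that rose were GDF3, a TGF-beta family ligand, and VENTX, a homeobox gene. GDF3 read 3986 and 3316 in NANOG cells, 351 and 211 in OCT4 cells, 113 and 134 in SOX2 cells, and 699 and 275 in control cells. It rose by 3.20 (SE 0.45, adjusted p = 0.0116), with uneven control arrays here too. VENTX read 1315 and 1254 in NANOG cells against 514 and 299 in control cells, a rise of 1.84 (SE 0.27, adjusted p = 0.0142). Both calls were lost without either NANOG array, and that of VENTX without control replicate 2 too, at an adjusted p up to 0.192 for GDF3 and 0.206 for VENTX. Not every gene of this list moved: ZFP42, a zinc finger gene of pluripotent cells, read 1017 and 881 in NANOG cells and 971 and 1125 in control cells (log2 -0.15, adjusted p = 0.796), and DPPA4, the partner of DPPA2, read 5224 and 4899 against 4829 and 4354 (log2 0.14, adjusted p = 0.720).

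In SOX2 cells 0 of these 11 genes rose and 5 fell, where 5.64% and 4.41% of all genes did, with a median of -0.66 against 0.00443 over all genes. Those with the smallest adjusted p were VENTX at -1.40 (SE 0.27, adjusted p = 0.0204), GDF3 at -2.29 (SE 0.45, adjusted p = 0.0218), SALL4, a zinc finger factor, at -0.58 (SE 0.13, adjusted p = 0.0307) and SUSD2, a surface marker of naive human cells, at -0.66 (SE 0.15, adjusted p = 0.0360). All 5 calls, that of ZFP42 included, were lost without control replicate 1 and without either NANOG array, those of SALL4, SUSD2 and ZFP42 also without either OCT4 array, and those of SALL4 and ZFP42 without control replicate 2 or SOX2 replicate 2 too. The adjusted p then reached 0.0903 for VENTX, 0.0925 for GDF3, 0.140 for SALL4, 0.189 for SUSD2 and 0.199 for ZFP42. All 5 calls were also lost when only the 2 groups were fitted, at an adjusted p of 0.122 for GDF3 and VENTX and 0.164 for SALL4. In OCT4 cells 0 of the 11 were called, where 0.201% of all genes rose and 0.0402% fell, with a median of -0.20. The lists were chosen with earlier results of these data known, so their counts are a description.

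**Figure D4:**
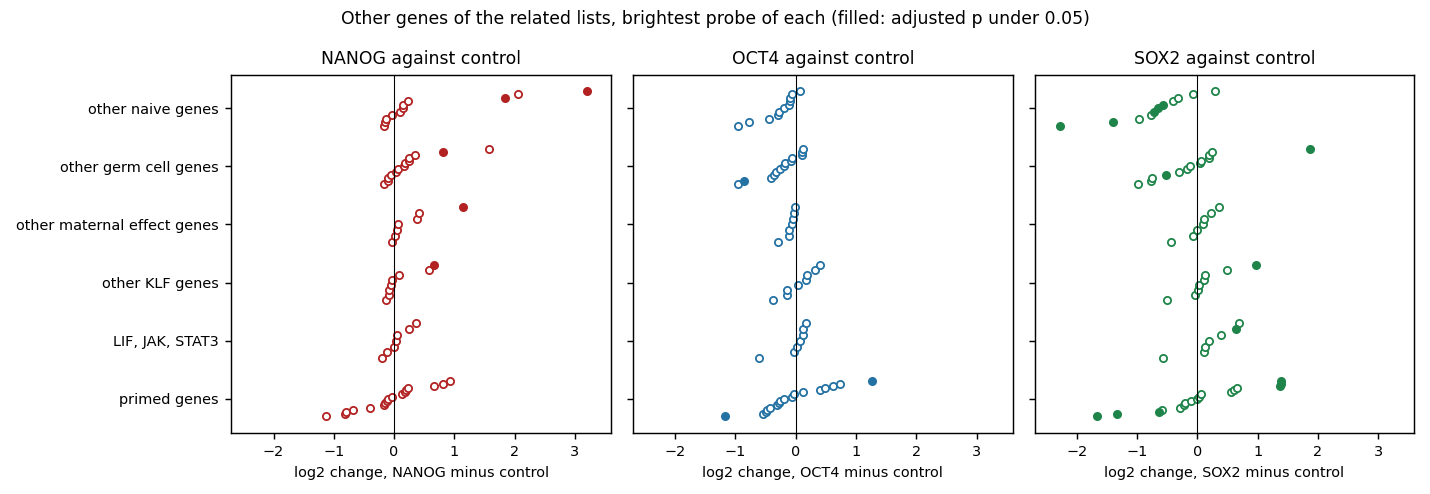
Difference from control on the log2 scale for each other tested gene of 6 lists (naive pluripotency, germ cell, maternal effect, Krüppel-like family, LIF and STAT3 signalling, primed pluripotency) in NANOG, OCT4 and SOX2 cells; filled points passed at an adjusted p under 0.05. The naive list has 2 filled points above 0 in NANOG cells, GDF3 and VENTX, and 5 below 0 in SOX2 cells.

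The germ cell list outside the 10 had 13 tested genes. In NANOG cells 1 rose and 0 fell, where 2.32% and 0.675% of all genes did: TFAP2C, a factor needed for human primordial germ cells, read 746 and 775 in NANOG cells and 451 and 453 in control cells, a rise of 0.81 (SE 0.16, adjusted p = 0.0420). In SOX2 cells 1 rose and 1 fell, where 5.64% and 4.41% of all genes did. PRDM1, which specifies germ cells, read 265 and 368 in SOX2 cells against 113 and 119 in control cells, at least 2.52-fold higher by deposited intensity (adjusted p = 0.00119), and the NANOG arrays, at 133 and 127, were far lower than the SOX2 arrays. KIT, the receptor that migrating germ cells use, was the 1 call in OCT4 cells, where 0.0402% of all genes fell, and fell by 0.86 (SE 0.12, adjusted p = 0.0498), reading 210.4 and 235 in OCT4 cells against 392 and 346 in control cells. It fell by 0.53 in SOX2 cells (SE 0.12, adjusted p = 0.0367). Of these 4 calls, that of PRDM1 held with any 1 array left out. That of TFAP2C was lost without any 1 control or NANOG array (adjusted p up to 0.337), and with the filter on all 8 arrays. KIT was lost in OCT4 cells without any 1 control, NANOG or OCT4 array (up to 0.434), with no background correction, with the filter on all 8 arrays and when only the 2 groups were fitted, and in SOX2 cells without any 1 array but SOX2 replicate 1 (up to 0.210) or when only the 2 groups were fitted.

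Among 7 other maternal-effect genes, NLRP2, a relative of NLRP7, read 219 and 189 in NANOG cells and 119 and 111 in control cells, at least 1.65-fold higher by deposited intensity (adjusted p = 0.00539), and the other 6 did not pass in any comparison with control. Over all genes 2.32% were higher in NANOG cells. That call was lost without control replicate 2 or NANOG replicate 1, at an adjusted p up to 0.108. Of 8 other Krüppel-like genes, 1 rose in NANOG cells and 1 in SOX2 cells, where 2.32% and 5.64% of all genes did. In both it was KLF6, which rose by 0.66 in NANOG cells (SE 0.12, adjusted p = 0.0343) and by 0.97 in SOX2 cells (SE 0.12, adjusted p = 0.00372). KLF6 read 764 and 756 in NANOG cells, 920.0 and 945 in SOX2 cells, and 485 and 508 in control cells. The SOX2 call held with any 1 array left out, and the NANOG call was lost without any 1 of the control or NANOG arrays, at an adjusted p up to 0.334. Of 7 genes of LIF and STAT3 signalling, 0 were called in NANOG or OCT4 cells by limma, and 1 was in SOX2 cells, where 5.64% of all genes were higher. IL6ST, the shared receptor subunit gp130, rose by 0.64 in SOX2 cells (SE 0.13, adjusted p = 0.0264), which was lost without any 1 control or OCT4 array, at an adjusted p up to 0.129, and when only the 2 groups were fitted (0.138).

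The 17 tested genes of primed pluripotency gave 0 calls in NANOG cells by limma (2.32% of all genes higher and 0.675% lower), with a median log2 change of -0.10. In SOX2 cells 3 rose and 3 fell, where 5.64% and 4.41% of all genes did. The 4 with the smallest adjusted p were HESX1, a homeobox repressor, at -1.66 (SE 0.14, adjusted p = 0.000851), DUSP6, an ERK phosphatase, at 1.38 (SE 0.16, adjusted p = 0.00265), the intermediate filament gene VIM at 1.36 (SE 0.18, adjusted p = 0.00461) and the DNA methyltransferase gene DNMT3B at -1.33 (SE 0.25, adjusted p = 0.0196). The first 3 of these held with any 1 array left out, though VIM was lost when only the 2 groups were fitted (adjusted p = 0.0744). The DNMT3B call was lost without control replicate 1 or either NANOG array. It was also lost when only the 2 groups were fitted (adjusted p = 0.135). In OCT4 cells 1 rose and 1 fell, where 0.201% and 0.0402% of all genes did: HESX1 was at -1.17 (SE 0.14, adjusted p = 0.0238) and DUSP6 at 1.27 (SE 0.16, adjusted p = 0.0287), both lost without any 1 control, NANOG or OCT4 array, at an adjusted p up to 0.287.

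Finally, the genes whose pattern over the 8 arrays was most like that of DPPA3, DPPA5 or NLRP7 were listed. Likeness was the mean absolute difference, over the 8 arrays, of log2 intensity minus the control mean, among 12286 named genes, and a lower value is closer. For DPPA3 the closest were CST1 (a cystatin, 0.455), CSH2 (a placental lactogen gene, 0.479), LEFTY1 (a Nodal antagonist, 0.497), TAFA2 (0.509) and AKR1C2 (an aldo-keto reductase, 0.564). Their NANOG differences from control were 2.27 to 3.26, under the 4.11 of DPPA3, which was the highest of all tested probes. For DPPA5 they were PGM1 (phosphoglucomutase, 0.112), CCL26 (a chemokine, 0.177), MT1F (a metallothionein, 0.185), TCL1B (0.205) and PPP1R1B (a phosphatase inhibitor, 0.206), all of which were high in NANOG cells and had lower means in OCT4 and SOX2 cells than in control cells. For NLRP7 they were ANKRD35 (0.116), GLRX (glutaredoxin, 0.135), GABRP (a GABA receptor subunit, 0.168), TBC1D2 (0.176) and CTDSPL (a phosphatase, 0.176). CSH2 and MT1F belong to families of near-identical genes, so their values are uncertain. The other listed genes were not examined for such relatives. The points share 8 arrays, and closeness in this measure is a description.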

How the data were processed

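Values were the authors' deposited intensity table, 47323 probes on 8 Illumina arrays of biotin-labelled cRNA. Its sorted values differed by at most 2.3 between arrays, with a median of 117.1, so they had been quantile normalized, with a tool not given in the sources used here. An unused table of unnormalized signals held 16 columns (8 of signal, 8 of detection p) whose names match no label.

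Intensities were background-corrected (normexp, offset 50) and taken to log2. Probes above the 60th percentile, 123.7, on at least 2 arrays were fitted in limma 3.58.1 (R 4.3.3), 1 model with a mean per group (4 residual and 4.34 prior degrees of freedom), two-sided, with Benjamini-Hochberg adjustment over 21828 probes and a threshold of 0.05. The offset understates changes of dim genes. Other folds are ratios after background correction. Where both arrays of a group lay at or under 123.7, the fold is a bound taken on the deposited intensities, with dim arrays raised to 123.7 (a scale chosen after the values were seen). The adjusted p beside a bound is that of the background-corrected log2 difference. The procedure was tested on simulated data.

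Every probe of the 10 genes is named, up to 4 called genes per list and comparison with the smallest adjusted p, and 5 genes most like DPPA3, DPPA5 and NLRP7; ZFP42 and DPPA4 were chosen after their values were seen. Symbols came from the platform annotation, which gave 30113 probes 1 symbol, 8 several and 17202 none. The members and lists were chosen with earlier results of these data known. Alternatives were no background correction, no filter, a filter on all 8 arrays, cyclic loess, 1 probe per gene, fitting only 2 groups, a replicate block, and leaving out each array.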

Additional observations from a re-analysis of the deposited data

How the results depend on the processing

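Of the 14 tested probes, those called were 8 (NANOG against control), 0 (OCT4 against control), 1 (SOX2 against control), 9 (NANOG against OCT4), 11 (NANOG against SOX2) and 0 (OCT4 against SOX2). The filter on all 8 arrays removes genes that are dim in some group, and left only DPPA2, KLF2 and the brighter KLF4 probe to be tested. Of these, 1 was called for NANOG against control, 1 for NANOG against OCT4 and 2 for NANOG against SOX2. With 1 probe per gene, 9 were tested. The counts were then 5 for NANOG against control, 7 for NANOG against SOX2 and 1 for OCT4 against SOX2. The SOX2 count against control was 0 with no background correction, with no filter, and with only the 2 groups fitted. Leaving out 1 array gave 5 to 10, 0 to 0, 0 to 2, 6 to 12, 6 to 11 and 0 to 3 in the order above.

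Over all probes the counts were 506, 38, 1749, 1118, 2939 and 1036 in that order. The filter on all 8 arrays gave 260 for NANOG against control, 14 for OCT4 against control and 722 for NANOG against OCT4. Fitting only the 2 groups gave 1674 for NANOG against control (994 higher and 680 lower, against 389 and 117 in the model of all arrays), 189 for SOX2 against control, 3419 for NANOG against OCT4, 1748 for NANOG against SOX2 and 157 for OCT4 against SOX2. Leaving out 1 array gave 67 to 1520, 1 to 195, 347 to 5444, 149 to 2544, 700 to 6161 and 245 to 5071.

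Same-numbered arrays did not deviate together in every pair (correlations over probes of -0.19 to 0.35), so the numbers were not taken as pairs. With a replicate block the calls among the members were 8, 0, 1, 10, 11 and 0, and over all probes 24 for OCT4 against control. Of 26 calls against control among the list genes and cell markers, 8 were lost with the block (TFAP2C and KLF6 in NANOG cells, HESX1 and KIT in OCT4 cells, and KIT, SUSD2, ZFP42 and COL1A2 in SOX2 cells), 13 when only the 2 groups were fitted, 3 with the filter on all 8 arrays, 2 with no background correction and 1 with cyclic loess.

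The direction of 7 differences that did not pass depended on single arrays. Leaving out 1 array gave -0.091 to 0.093 for TBX3 in NANOG cells against control. In OCT4 cells against control it gave -1.20 to 0.087 for DPPA2, -0.35 to 0.11 for DND1 and -0.18 to 0.089 for TFCP2L1. In SOX2 cells against control it gave -0.049 to 0.24 for DND1, -0.074 to 0.16 for TFCP2L1 and -0.078 to 0.38 for KLF4. The cause was not tested.

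Each group has 2 arrays, and the control arrays differed for several members. Where both arrays of a group lay at or under the filter intensity, a fold is given only as a bound. The log2 differences of such probes are model estimates, and their size is uncertain.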
